A study of Rattus norvegicus with 9 samples.

Results

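The genes described here are 10 transcripts known as readouts of injury and altered state in kidney tubules: Lcn2, Spp1, Clu, Havcr1, Lgals3, the keratins Krt7, Krt8, Krt18 and Krt19, and Vim. They were taken by gene symbol from a table of 30315 loci, each symbol matched a single row, and all 10 were among the 14338 loci that were tested, those averaging 1 FPKM or more over the libraries (fragments counted per length of transcript and per size of library). RNA came from the renal outer medulla of 9 rats, all of the strain MCW SS, whose blood pressure is salt-sensitive, with 1 library per rat and 3 rats in each of 3 groups. Rats labelled 0.4% salt ate the 0.4% NaCl diet, underwent the same surgery as the rest, and gave tissue before any GapmeR or change of diet. The HS_SCR rats were given 4 mg/kg of scrambled GapmeR within the kidney and 4% NaCl food for 7 days; GapmeRs are antisense oligonucleotides that direct RNase H to an RNA, and a scrambled one has no chosen target. Rats labelled HS_DT received GapmeRs against Dnmt3a and Tet3, a DNA methyltransferase and a methylcytosine dioxygenase, at 2 mg/kg each, and the same 4% NaCl diet, whose stated length of 7 has no unit. No group had the diet without a GapmeR, so diet, oligonucleotide and elapsed time cannot be told apart in any change from 0.4% salt. The labels give no age or sex.

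Tubular epithelium responds to damage by secreting proteins such as lipocalin-2 (Lcn2) and osteopontin (Spp1), by exposing the phosphatidylserine receptor KIM-1 (Havcr1), and by rebuilding its intermediate filaments. Simple epithelia hold filaments of paired keratins, a type II chain (Krt7, Krt8) with a type I chain (Krt18, Krt19), and vimentin (Vim) is the filament protein of mesenchymal cells and of dedifferentiated tubule cells. In the kidney, Havcr1 is best known from the damaged proximal tubule, and Lcn2 from the injured distal nephron and from neutrophil granules.

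Lower levels of the targeted transcripts under HS_DT than under HS_SCR were not seen. Dnmt3a stood at 13.4, 12.2 and 12.9 FPKM in 0.4% salt, 7.05, 5.75 and 10.3 in HS_SCR, with 8.72, 10.3 and 11.02 in HS_DT. Tet3 in the same order of groups stood at 9.38, 8.47 and 9.64, at 5.04, 5.47 and 8.20, and at 7.62, 8.54 and 7.92 FPKM. Neither transcript was lower under the label HS_DT than under HS_SCR (log2 changes of 0.37 ± 0.18 (SE) for Dnmt3a and 0.34 ± 0.15 for Tet3, limma adjusted p = 0.303 and 0.271), so each direction below refers to labels only. The libraries of HS_SCR were the least alike, with Spearman correlations across loci of 0.931 to 0.968, against 0.979 to 0.983 in 0.4% salt and 0.968 to 0.984 in HS_DT. HS_SCR replicate 3 had the lowest share of mitochondrially encoded FPKM, 20.6%, where the other 8 libraries had 25.4% to 31.9%. Thick ascending limb markers such as Slc12a1 (451 to 975 FPKM over the libraries) and principal cell markers such as Aqp2 (342 to 1020.3) were abundant in every library. Read depth is unknown, and the depth relative to 0.4% salt replicate 1 was estimated at 0.762 to 1.38.

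Against 0.4% salt, injury and keratin transcripts were more abundant in HS_SCR. Of the 10 genes, 7 rose (Lcn2, Spp1, Lgals3, Krt7, Krt8, Krt18 and Vim), none fell, and 3 (Clu, Havcr1, Krt19) were not called (limma on log2(FPKM + 1), adjusted p under 0.05 over the 14338 loci). Over all tested loci 8.2% rose and 4.88% fell in this comparison. The median log2 change of the 10 genes was 1.08, against 0.02 for all loci. All 10 changes were positive, as were 52.2% of all changes, and ran from 0.60 (Krt7) to 2.00 (Lcn2). For 9 of the genes the HS_SCR range lay wholly above the range of 0.4% salt, which held for 19.1% of loci. The genes were chosen with these results known, so the counts describe them and do not test them.

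**Figure D1:**
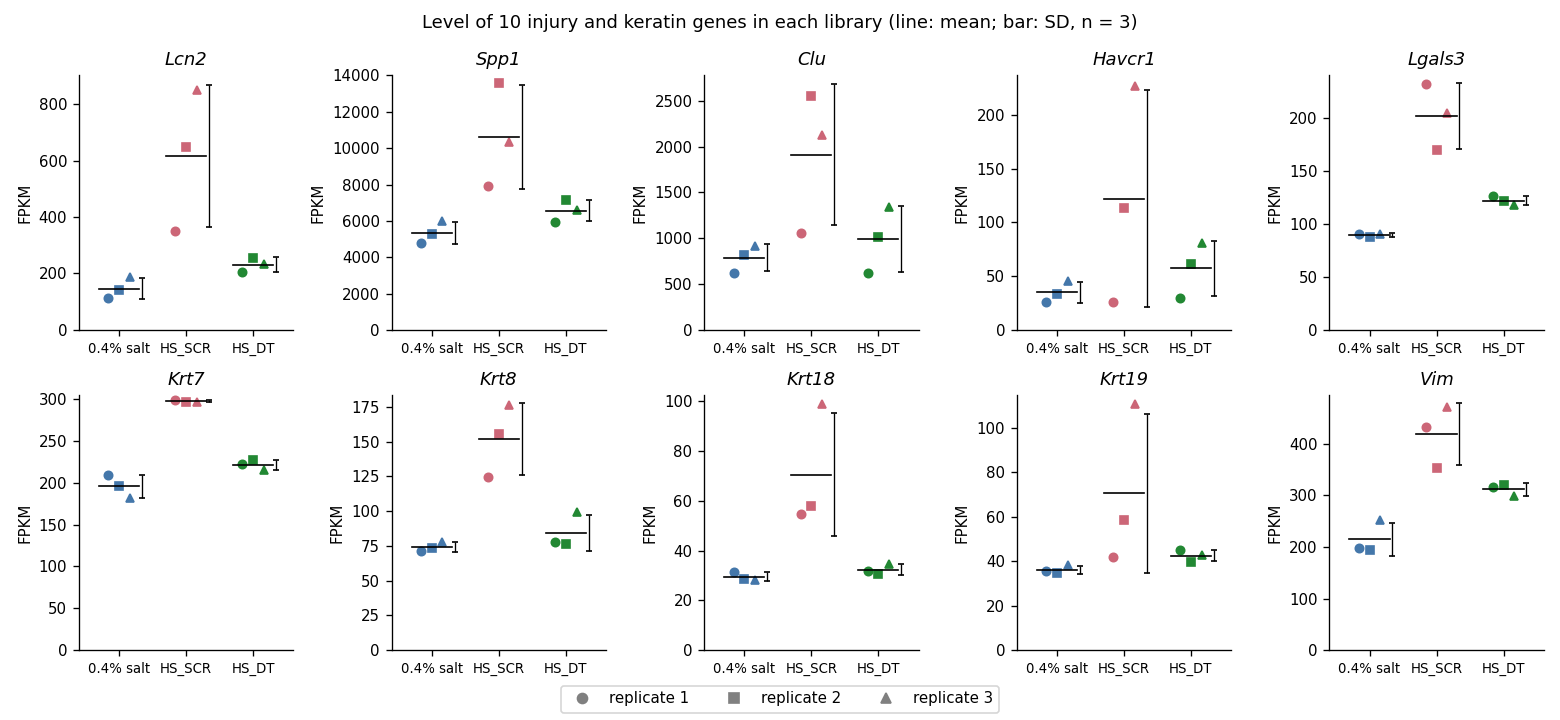
FPKM of each of the 10 genes (a panel per gene, vertical axis from 0) in the 3 libraries of each group, with the marker shape giving the replicate number, the line the mean and the bar the SD. In 9 panels the HS_SCR points lie above all 0.4% salt points, while in the panel of Havcr1 HS_SCR replicate 1 lies just under them at 26.0 FPKM.

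Lcn2, which binds iron-carrying siderophores, showed the largest change of the 10 genes. Its locus lies on rn5 chromosome 3 from 16763047 to 16766540. It measured 113, 140.1 and 186 FPKM in 0.4% salt, 352, 647 and 850.3 in HS_SCR, with 205, 256 and 232 in HS_DT. The 3 groups did not overlap, and HS_DT lay between the others. The rise in HS_SCR came to a log2 change of 2.00 ± 0.31 (SE; 95% interval 1.30 to 2.70; limma adjusted p = 0.00835), from 146 ± 36.9 to 616 ± 251 FPKM (SD, n = 3). It stayed past the threshold without any 1 library, with values from 1.73 to 2.36. Since neutrophils carry Lcn2 too, some of their other granule genes were read beside it. Mpo, Elane, Ngp, Camp and Ltf ran from 0 to 0.900 FPKM over the 9 libraries, and Mmp8 from 0.0392 to 3.84. By group mean Ltf was lower in HS_SCR than in 0.4% salt, and the rest were higher: Mmp8 stood at 0.120 and 1.82 FPKM, Camp at 0.0399 and 0.545, Ngp at 0.109 and 0.447, Elane at 0.0220 and 0.246 and Mpo at 0.0359 and 0.213. All 6 averaged under 1 FPKM and were not tested. Fcnb and Csf3r, also on the neutrophil list, were tested and not called. Their means in 0.4% salt, HS_SCR and HS_DT were 5.02, 7.31 and 7.88 FPKM for Fcnb and 2.26, 4.63 and 4.98 for Csf3r. The neutrophil transcripts S100a8 and S100a9 were higher in HS_SCR, S100a9 at 46.7, 227 and 43.2 FPKM against 2.13 to 2.77 in 0.4% salt, and their library order differed from that of Lcn2. The part of neutrophil RNA in the Lcn2 values was not tested further.

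Spp1, a secreted phosphoprotein that binds integrins and CD44, was among the most abundant transcripts of the tissue. By group mean it ranked 7 of 12100 single-symbol loci in 0.4% salt, 4 in HS_SCR and 7 in HS_DT. Its values were 4798, 5249 and 5965 FPKM in 0.4% salt, 7904, 13596 and 10336 in HS_SCR, with 5959.7, 7119.8 and 6578 in HS_DT (chromosome 14, 6653092 to 6658953). All HS_SCR libraries lay above both other groups, and HS_DT overlapped 0.4% salt by 1 value. Spp1 rose in HS_SCR by 0.96 ± 0.20 (limma adjusted p = 0.0218). That call ended without 0.4% salt replicate 1 (adjusted p = 0.0795), without 0.4% salt replicate 2 (0.0854) and without HS_SCR replicate 2 (0.0513). It also ended under quantile normalization, where the change was 0.50 (adjusted p = 0.318), with rat number series added to the model (0.0577), with no filter on low values (0.130) and in a fit of the 2 groups alone (0.0786).

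Clu, the secreted chaperone clusterin, was uneven within the high-salt groups (chromosome 15, 48926515 to 48939266). It measured 626, 822 and 919 FPKM in 0.4% salt, 1056, 2549.6 and 2127 in HS_SCR, with 625, 1013 and 1339 in HS_DT. HS_SCR lay wholly above 0.4% salt, but its lowest library stood below the highest of HS_DT. The log2 change from 0.4% salt to HS_SCR was 1.20 ± 0.37, short of the threshold (limma adjusted p = 0.0653). It passed without HS_SCR replicate 1 (1.58, adjusted p = 0.0229), with the replicate number as a block (1.20, 0.0167) and with library weights (1.32, 0.0325).

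Havcr1, the membrane receptor that lets proximal tubule cells take up apoptotic debris, varied most among rats of the same group (chromosome 10, 31644746 to 31668183). Its values were 26.1, 33.5 and 45.0 FPKM in 0.4% salt, 26.0, 113 and 227 in HS_SCR, with 29.7, 61.3 and 80.6 in HS_DT. HS_SCR replicate 1 sat below every 0.4% salt library, while the other HS_SCR libraries exceeded all libraries of both other groups. The coefficient of variation within HS_SCR was 82.5%, against 40.7% for Lcn2 and 0.434% for Krt7. Its log2 change of 1.34 ± 0.70 was not called (95% interval -0.26 to 2.95; limma adjusted p = 0.222). Without HS_SCR replicate 1 the change was 2.204 and passed (adjusted p = 0.0254), and without HS_SCR replicate 3 it was 0.66 (0.430). The fibrinogen chain gene Fgb followed the same order, at 4.16, 40.9 and 81.0 FPKM in HS_SCR against 4.94 to 11.3 in 0.4% salt. Within HS_SCR the order also differed for a proximal tubule marker, Slc34a1, the brush-border phosphate transporter. Slc34a1 was low in HS_SCR replicate 1 (4.62 FPKM) and in HS_SCR replicate 3 (2.11) and higher in replicate 2 (30.2). Summed over 19 proximal tubule markers, HS_SCR replicate 1 was the lowest of its group (116 FPKM), as it was for Havcr1. The largest such sum was that of HS_SCR replicate 2 (622), while replicate 3, highest for Havcr1, had 278. In HS_DT the order was that of Havcr1, both for Slc34a1 (25.5, 29.6 and 166 FPKM) and for the sum (435, 577 and 1906). In 0.4% salt it was not, at 68.6, 231 and 100 FPKM for Slc34a1 and 1074, 2826 and 1229 for the sum. Any link of Havcr1 to these sums was not tested.

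Lgals3, the galactoside-binding lectin galectin-3 of macrophages and of injured and collecting duct epithelium, was even within each group. It measured 90.3, 87.9 and 91.0 FPKM in 0.4% salt, 232, 170.2 and 205 in HS_SCR, with 126, 122 and 118 in HS_DT (chromosome 15, 28082494 to 28106285, overlapped by an unnamed locus with a mean of 0.303 FPKM). The 3 groups were fully separated, with HS_DT in the middle. Lgals3 rose in HS_SCR by 1.15 ± 0.11 (limma adjusted p = 0.00564), and the call held in all 19 alternative fits, with values from 1.01 to 1.27.

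Among the simple-epithelial keratins, Krt8 and Krt18 form the usual pair, and their loci lie 25029 bases apart on chromosome 7 (Krt8 at 141393000 to 141400642, Krt18 at 141425672 to 141429364). Krt8 measured 71.3, 73.5 and 78.1 FPKM in 0.4% salt, 125, 155 and 176 in HS_SCR, with 77.6, 76.6 and 99.5 in HS_DT. Krt18 measured 31.5, 28.5 and 28.3, then 54.7, 57.9 and 98.8, and 31.8, 30.6 and 34.6 FPKM. For both genes every HS_SCR library stood above all 6 other libraries, and HS_DT overlapped 0.4% salt. In HS_SCR, Krt8 rose by 1.01 ± 0.14 (limma adjusted p = 0.00728) and Krt18 by 1.18 ± 0.20 (0.0109). The call of Krt18 ended without 0.4% salt replicate 2 (1.16, adjusted p = 0.0533).

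Krt7 and Krt19 are the type II and type I keratins best known from the collecting duct. Krt7 (chromosome 7, 140860958 to 140877206) measured 209, 196 and 182 FPKM in 0.4% salt, 299, 296 and 296 in HS_SCR, with 222, 227 and 215 in HS_DT. These groups did not overlap, and the HS_SCR libraries were nearly equal. Krt7 had the smallest change of the 10 genes, a rise of 0.60 ± 0.08 in HS_SCR (limma adjusted p = 0.00629). Krt19 (chromosome 10, 87848493 to 87853235) measured 35.4, 34.8 and 38.2 FPKM in 0.4% salt, 42.1, 58.6 and 111 in HS_SCR, with 44.9, 39.9 and 42.7 in HS_DT. Its high HS_SCR mean rested on replicate 3, and the other HS_SCR libraries lay closer to HS_DT. The change of 0.83 ± 0.29 did not pass (limma adjusted p = 0.0869). It passed at 0.45 without HS_SCR replicate 3 (adjusted p = 0.0322), at 1.14 without HS_SCR replicate 1 (0.0238), at 1.22 with rat number series in the model (0.0388) and at 0.61 with library weights (0.0268).

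Vim, on chromosome 17 from 82500527 to 82509406, measured 198, 193 and 252 FPKM in 0.4% salt, 432, 354 and 471 in HS_SCR, with 315, 320.5 and 298 in HS_DT. The groups were fully separated in that order, with HS_DT between the others. Vim rose in HS_SCR by 0.96 ± 0.14 (limma adjusted p = 0.00723), a call that held in all 19 alternative fits (0.74 to 1.08).

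Promoter stretches of 4 of the called genes are shown from RefSeq because these transcripts rose together. Each stretch runs from 250 to 51 bases before the annotated start, on the strand of the gene, in build GRCr8, which is not the build of the expression table. Capitals mark matches to TATAAA or GGGCGG on either strand.
Lcn2, chr3:36081831-36082030, minus strand:
Lcn2: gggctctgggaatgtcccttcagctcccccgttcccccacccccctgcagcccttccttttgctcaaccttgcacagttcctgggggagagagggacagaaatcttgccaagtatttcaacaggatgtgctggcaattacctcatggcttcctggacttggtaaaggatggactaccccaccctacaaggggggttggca
Krt8, chr7:135010390-135010589, minus strand:
Krt8: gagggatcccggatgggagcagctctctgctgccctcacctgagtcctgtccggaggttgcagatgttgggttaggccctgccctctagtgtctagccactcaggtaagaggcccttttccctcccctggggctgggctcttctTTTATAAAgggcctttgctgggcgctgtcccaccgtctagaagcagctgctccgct
Krt18, chr7:135035918-135036117, plus strand:
Krt18: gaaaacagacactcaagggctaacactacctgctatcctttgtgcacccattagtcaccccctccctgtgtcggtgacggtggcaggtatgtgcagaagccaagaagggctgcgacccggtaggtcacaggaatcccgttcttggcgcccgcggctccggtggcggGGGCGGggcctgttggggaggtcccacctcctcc
Vim, chr17:81577011-81577210, plus strand:
Vim: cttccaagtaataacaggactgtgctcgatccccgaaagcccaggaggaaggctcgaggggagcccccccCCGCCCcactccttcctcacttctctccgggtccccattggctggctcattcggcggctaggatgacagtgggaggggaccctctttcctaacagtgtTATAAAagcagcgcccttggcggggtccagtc
Windows were found for 6 of the 10 genes, those of Spp1 and Havcr1 besides these 4. In the 250 bases before the start, TATAAA (both strands) occurred in 3 of the 6, Spp1, Krt8 and Vim, and in 12.9% of 33469 RefSeq windows, and the SP1 motif GGGCGG in 2 of the 6, Krt18 and Vim, and in 30.5% of windows. The letters TGANTCA (searched for AP-1), TTCNNNGAA (STAT) and GGGNNTTCC (NF-kB) were in none of the 6 windows, against 6.34%, 7.67% and 5.09% of all windows. Other forms of these motifs, such as NF-kB patterns of another length, were not searched, so no site for these factors is called absent. In Krt8 the TATAAA letters occur on both strands in overlapping positions. A match or its lack describes these letters in this window and says nothing of binding.

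**Figure D2:**
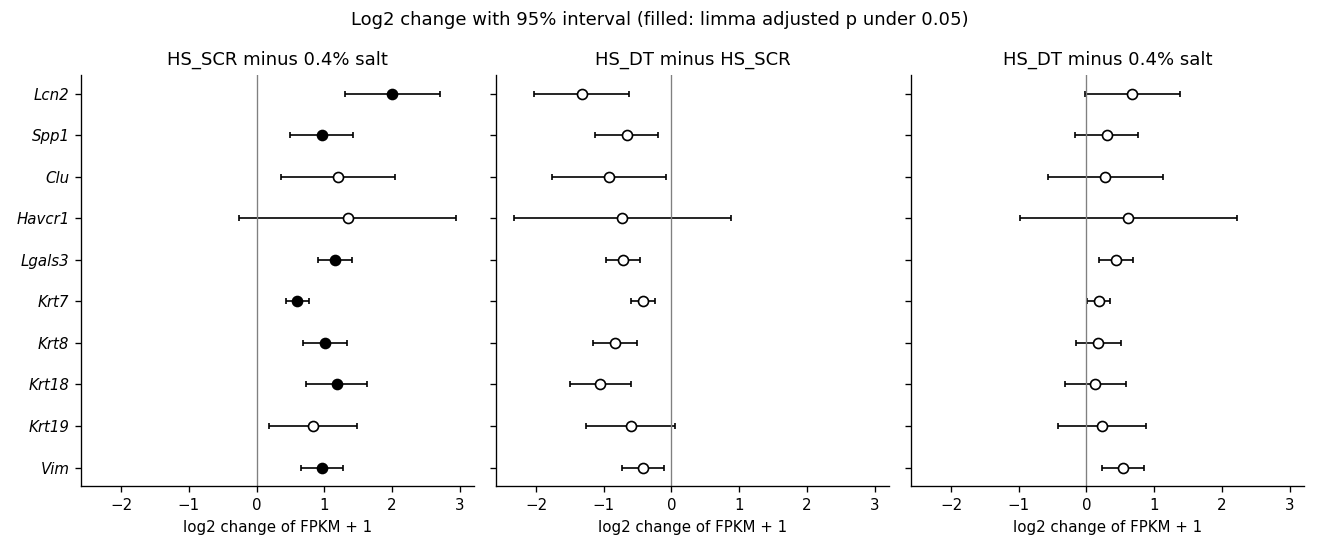
Log2 change of FPKM + 1 (horizontal axis) with its 95% interval for each gene in the 3 comparisons, filled where the limma adjusted p is under 0.05. In HS_SCR minus 0.4% salt 7 points are filled; in the other panels no point is filled, though all 10 points lie below 0 in HS_DT minus HS_SCR.

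All 10 genes had a negative log2 change from HS_SCR to HS_DT, a sign shared by 50.3% of loci, and none was called in the fit of all 9 libraries. By limma, 0.00697% of loci were called, which is 1 of 14338. At an unadjusted p under 0.05 there were 8 of the 10 genes, against 19.1% of all loci. HS_DT ranges lay wholly below HS_SCR for 7 genes (all but Clu, Havcr1 and Krt19), against 12.5% of loci. The median log2 change of the 10 genes was -0.72, against 0.00 for all loci. This comparison shares its HS_SCR libraries with the one above, so high values there move both.

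The largest differences were those of Lcn2, -1.32 ± 0.31 (95% interval -2.02 to -0.62; limma adjusted p = 0.0840), and Krt18, -1.05 ± 0.20 (0.0644). Krt8 stood at -0.83 ± 0.14, Lgals3 at -0.71 ± 0.11 and Krt7 at -0.42 ± 0.08, each with an adjusted p of 0.0644. Spp1 (-0.66), Clu (-0.92), Havcr1 (-0.72), Krt19 (-0.60) and Vim (-0.42) had limma adjusted p from 0.148 to 0.605. The interval of Havcr1, -2.33 to 0.88, takes in changes of either sign. The calls depended on the fit. With a minimum mean of 5 FPKM, which tests fewer loci, Krt7, Krt8, Krt18 and Lgals3 passed (limma adjusted p = 0.0478, 0.0478, 0.0490 and 0.0478). The same 4 passed with rat number series in the model (0.0385 to 0.0410). Without HS_SCR replicate 1, Lcn2, Krt8, Krt18 and Lgals3 passed, and without HS_SCR replicate 3 or with library weights Lcn2, Krt7, Krt8, Krt18 and Lgals3 did. These fits also called more of all loci. Without HS_SCR replicate 3 there were 2300 and with library weights 1496, against 1 in the main fit.

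From 0.4% salt to HS_DT, all 10 genes had a positive log2 change, as did 51.4% of loci, and none was called by limma, where 0% of the 14338 loci were. At an unadjusted p under 0.05 there were 3 of the 10 genes, Krt7, Vim and Lgals3, and 7.49% of loci. The median log2 change was 0.29, against 0.01 for all loci. Ranges lay wholly above 0.4% salt for 5 genes, Lcn2, Krt7, Krt19, Vim and Lgals3, against 14.2% of loci. Vim stood at 0.55 ± 0.14 and Lgals3 at 0.44 ± 0.11, both with a limma adjusted p of 0.378, and Lcn2 at 0.68 ± 0.31 (0.673). Krt18 had the smallest difference, 0.13 ± 0.20 (95% interval -0.32 to 0.58). These SE and intervals use a spread pooled over the 3 groups, HS_SCR included. For Krt18 the SD was 24.5 FPKM in HS_SCR, against 1.82 in 0.4% salt and 2.08 in HS_DT. With library weights Lcn2 (0.86, adjusted p = 0.0206), Vim (0.61, 0.00623) and Lgals3 (0.44, 0.00652) passed, in a fit that called 1805 loci.

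A moderated F test over the 3 groups called 6 of the 10 genes, Lcn2, Krt7, Krt8, Krt18, Vim and Lgals3 (limma adjusted p from 0.0165 to 0.0239), against 5.61% of all loci. Spp1 missed the threshold (0.0556), as did Clu (0.144), Krt19 (0.188) and Havcr1 (0.433). No gene of the 10 passed the F test without 0.4% salt replicate 1, 0.4% salt replicate 2 or HS_DT replicate 2, and 1 did without HS_SCR replicate 2.

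**Figure D3:**
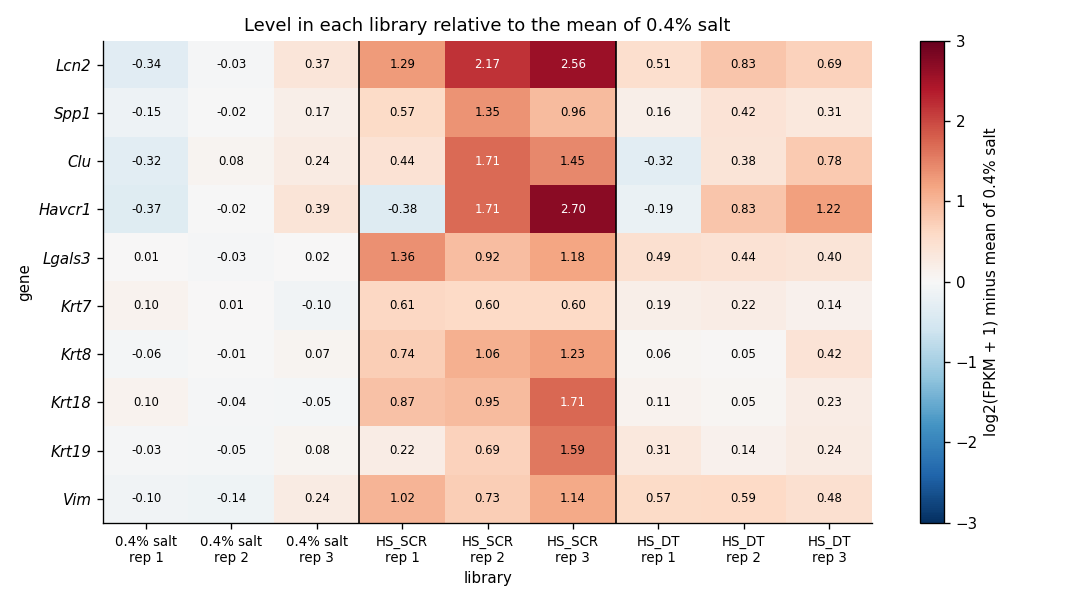
Level of each gene (rows) in each library (columns) as log2(FPKM + 1) minus the mean of the 0.4% salt libraries, printed in each cell. Lcn2 and Havcr1 reach 2.56 and 2.70 in HS_SCR replicate 3, while in HS_SCR replicate 1 Lcn2 stands at 1.29 and Havcr1 at -0.38.

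The HS_SCR rats did not rank alike for all genes. HS_SCR replicate 3 was highest of its group for Lcn2, Havcr1, Krt8, Krt18, Krt19 and Vim, replicate 2 for Spp1 and Clu, and replicate 1 for Krt7 and Lgals3. In HS_DT, replicate 3 was highest for Clu, Havcr1, Krt8 and Krt18, replicate 2 for Lcn2, Spp1, Krt7 and Vim, and replicate 1 for Krt19 and Lgals3. In 0.4% salt, replicate 3 was highest for 8 genes, and replicate 1 for Krt7 and Krt18. The rat numbers in the titles form a lower and a higher series that the labels do not explain, with all 0.4% salt rats, HS_SCR replicate 3 and HS_DT replicate 3 in the higher series. Within the higher series, HS_SCR replicate 3 exceeded the mean of the 3 rats of 0.4% salt for all 10 genes, by log2 differences of 0.60 to 2.70, and HS_DT replicate 3 did so by 0.14 to 1.22. Within the lower series, where there is no 0.4% salt rat, the HS_DT pair lay below the HS_SCR pair for all 10 genes, by -1.05 to -0.23, and in the higher series HS_DT replicate 3 lay below HS_SCR replicate 3 by -1.87 to -0.46.

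The balance within pairs of genes was compared as the ratio of FPKM, which is per length and so allows levels of different genes to be set side by side. Krt18 ran at 0.363 to 0.442 of Krt8 in 0.4% salt, 0.373 to 0.561 in HS_SCR and 0.348 to 0.411 in HS_DT, so the ranges overlapped. Krt19 ran at 0.169 to 0.210 of Krt7 in 0.4% salt, 0.141 to 0.374 in HS_SCR and 0.176 to 0.202 in HS_DT. The ratio of Lcn2 to Havcr1 was narrow in 0.4% salt, 4.13 to 4.33, and wide in HS_SCR, 3.75 to 13.5, with 2.88 to 6.90 in HS_DT. None of the 9 comparisons of these log2 ratios differed between groups beyond the spread (exact permutation test, two-sided, n = 3 per group, p from 0.4 to 0.9, adjusted p = 0.9 for each; the smallest p this design allows is 0.1).

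**Figure D4:**
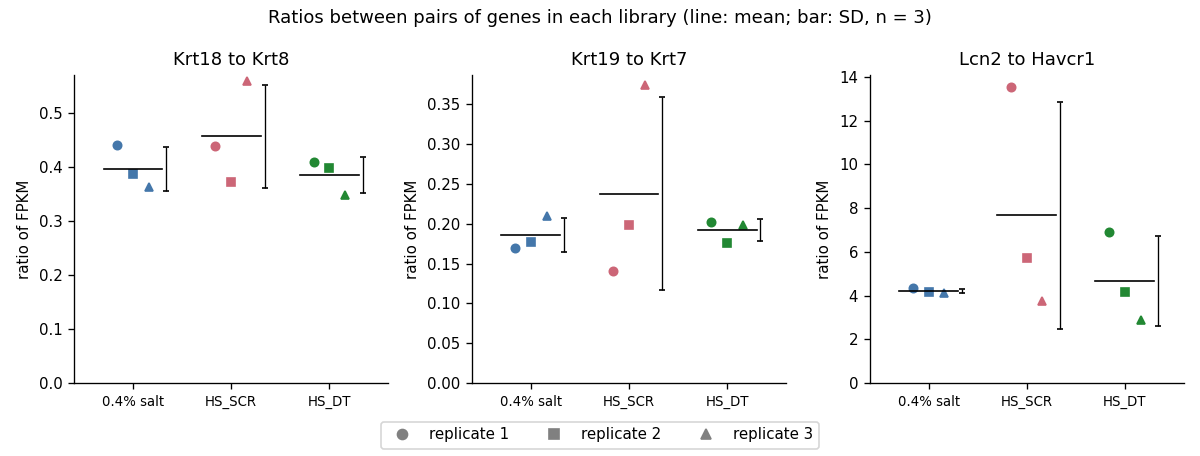
Ratio of FPKM between 3 pairs of genes (vertical axes from 0) in each library, with the marker shape giving the replicate number, the line the mean and the bar the SD. The Lcn2 to Havcr1 ratio is 13.5 in HS_SCR replicate 1 and between 4.13 and 4.33 in 0.4% salt.

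Further genes linked to tubular injury were read from a fixed list. Of 19 such genes tested, 5 rose in HS_SCR, 14 did not pass, and the median log2 change was 0.59. The complement component C3 rose by 1.39 ± 0.17 (limma adjusted p = 0.00566), Tnfrsf12a, the TWEAK receptor, by 1.03 ± 0.14 (0.00690), the cell cycle inhibitor Cdkn1a by 0.99 ± 0.23 and the protease inhibitor Timp1 by 0.98 ± 0.22. C3 differed from the 10 genes in its order of groups, at 8.03 ± 0.326 FPKM in 0.4% salt, 23.0 ± 4.95 in HS_SCR and 26.2 ± 5.11 in HS_DT (HS_DT against 0.4% salt 1.58 ± 0.17, adjusted p = 0.0643). Of 6 further keratins tested, Krt14, Krt15 and Krt17, keratins of basal and stratified epithelium, rose in HS_SCR and 3 did not pass. Krt15 went from 6.46 ± 3.72 to 22.4 ± 12.4 FPKM (1.69 ± 0.46, adjusted p = 0.0455), Krt17 from 1.19 ± 0.285 to 4.41 ± 0.653 (1.31 ± 0.24, 0.0146) and Krt14 from 2.64 ± 0.314 to 6.95 ± 1.75 (1.11 ± 0.22, 0.0178). The further keratins at 0 in all libraries included Krt13, Krt24 and Krt71.

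Partners of the filaments and receptors of the secreted proteins were read beside the 8.2% of all loci that rose. Of 14 keratin filament partners, the stratifin gene Sfn (0.83 ± 0.17, limma adjusted p = 0.0186) and the plakophilin Pkp2 (0.37 ± 0.09, 0.0382) rose in HS_SCR and the other 12 were not called (median 0.14). Of 12 receptors and partners, Tmbim1 rose (0.74 ± 0.15, adjusted p = 0.0190) and 11 were not called (median -0.03). Among 5 further galectins Lgals5 rose, from 0.287 ± 0.0309 to 4.35 ± 2.56 FPKM (adjusted p = 0.0160), and the median was -0.03. No gene of these lists was called from HS_SCR to HS_DT or from 0.4% salt to HS_DT.

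Markers of other cell types moved with the groups too, and in whole tissue fewer cells of a type and less RNA per cell cannot be told apart. Of 17 proximal tubule markers tested, 6 fell in HS_SCR and all 17 log2 changes were negative (median -2.80). Their summed level was 1074 to 2826 FPKM in 0.4% salt, 116 to 622 in HS_SCR and 435 to 1906 in HS_DT, with Slc5a12 at 0 in all HS_SCR libraries. Thick ascending limb markers summed to 3028 to 4769, 1309 to 3408 and 2660.1 to 3667 FPKM, and 4 of 12 fell in HS_SCR. Macrophage markers, 8 of 12 of which rose in HS_SCR, summed to 1795 to 2082 FPKM in 0.4% salt, 3070.4 to 4502 in HS_SCR and 2920.1 to 3445 in HS_DT, with Marco at 0 in all 0.4% salt libraries. Principal cell markers, with no call among 10, summed to 765 to 1508 FPKM, 1297 to 1893 and 935 to 1586. Their log2 change from 0.4% salt to HS_SCR was positive for 9 of the 10 (median 0.31). From HS_SCR to HS_DT it was positive for 2 (median -0.17). Neutrophil markers, of which 2 of 4 tested rose, summed to 11.4 to 14.1, 86.0 to 458 and 36.5 to 71.3 FPKM, with Cd177 at 0 in all libraries of 0.4% salt and HS_DT. Fibroblast and pericyte markers, with 1 of 10 called higher, summed to 1393 to 1912, 1851 to 1939 and 1824 to 1842 FPKM. Urothelial markers, which would come with pelvic epithelium and its keratins, summed to 112 to 238, 76.0 to 186 and 92.7 to 179 FPKM, with no call among 6. That sum was mostly Psca (139, 104 and 107 FPKM by group mean). The log2 change to HS_SCR was positive for 4 of the 6, and Upk1b (0.60 ± 0.21, limma adjusted p = 0.0859) and Grhl3 (0.35 ± 0.12, 0.0927) had HS_SCR ranges wholly above 0.4% salt. Erythroid markers, with 5 of 6 called higher, summed to 769 to 1132, 1945 to 10744 and 2458 to 3318 FPKM. The part of these shifts in the values of the 10 genes was not tested.

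**Figure D5:**
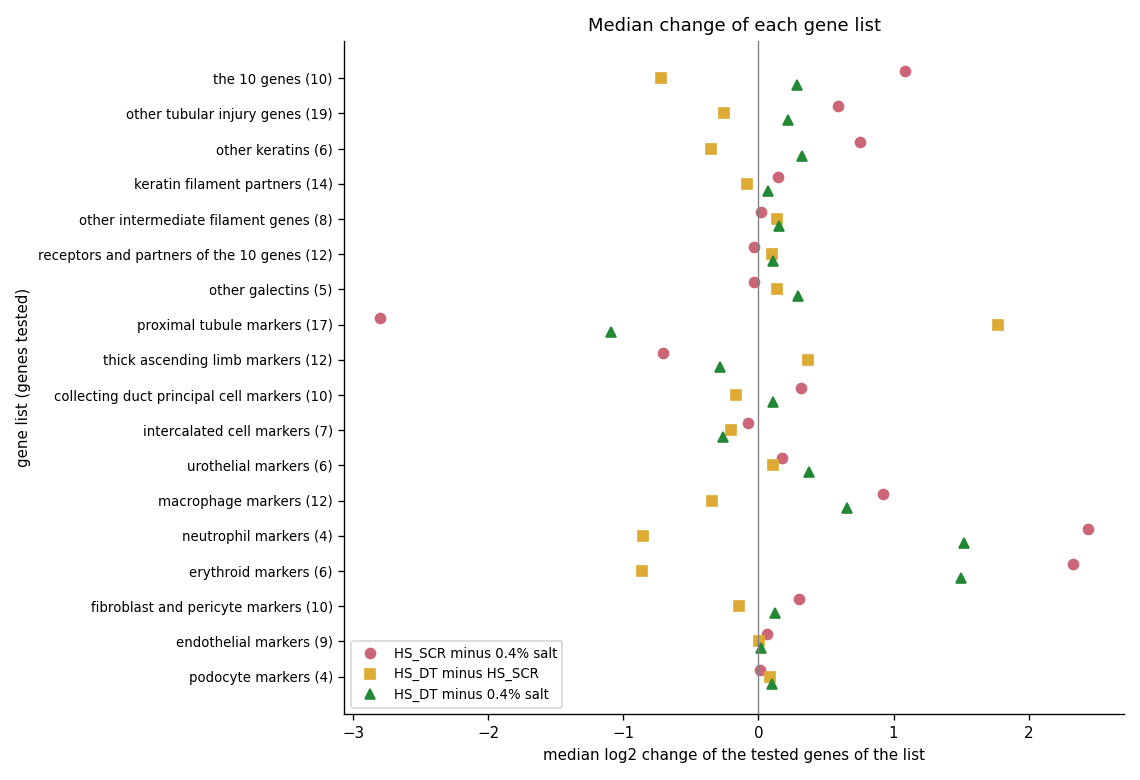
Median log2 change (horizontal axis) of the tested genes of each list, with the number tested in parentheses, in the 3 comparisons (marker shape and colour). The 10 genes stand at 1.08 in HS_SCR minus 0.4% salt, macrophage markers at 0.92 and proximal tubule markers at -2.80.

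Across the 9 libraries, the single-symbol loci most like each gene were found by Pearson correlation of log2(FPKM + 1) among 12090 candidates, as a description in which group differences and library effects are mixed. Lcn2 was matched most closely by Pla1a (r = 0.997), a phospholipase, and Apoe (0.992), the lipoprotein ligand, which stood at 423 FPKM on average in 0.4% salt, 1627 in HS_SCR and 657 in HS_DT. Havcr1 was matched by the fibrinogen chain genes FGA (r = 0.975) and Fgb (0.975) and by Acsl4 (0.967). Krt18 was nearest to F11r (0.988), a tight junction adhesion molecule, Krt19 to Slc43a3 (0.990), and Lgals3 to Blnk (0.988). Among the 10 genes themselves, the weakest correlation was that of Havcr1 with Lgals3 (r = 0.427).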

How the data were processed

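RNA-seq of renal outer medulla was deposited as 1 table of FPKM per locus, which the authors computed; per the submitters' processing notes, Trim Galore 0.2.5 and Cufflinks 2.2.1 were used with build rn5. For the aligner, the annotation and any scaling of libraries, the step is not given in the sources used here. Columns were matched to rats by the rat number in the titles; 1 further column repeats HS_DT replicate 3 at all 30315 loci and was not used. The deposited FPKM were log-transformed as log2(FPKM + 1), and 14338 loci averaging 1 FPKM or more were tested. Groups were compared in 1 fit of all 9 libraries with limma 3.58.1 (R 4.3.3, trend, 6 residual degrees of freedom, 8.54 after moderation, two-sided, Benjamini-Hochberg over all tested loci, called under 0.05). Log2 changes carry SE and means carry SD. Ratios of genes were tested by exact permutation with scipy 1.17.1. The fit was tested on simulated data.

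The labels do not say how rats were housed or assigned. The limma p-values set group differences against the spread between these rats, pooled over the 3 groups. That spread mixes the lower and higher rat number series. Relative depth was read from the lowest loci (mean below 0.15 FPKM): 81.2% to 85.7% of ratios between libraries there lay within 2% of a ratio of whole numbers up to 6. Named genes are the 10 genes and, from each other list and comparison, up to 4 called genes with the largest change. The text gives a selection of these, and values of further genes (Fgb, Fgg, granule genes) were added after they were seen. The genes and lists were chosen with earlier results of these data known. Tried as alternatives were other pseudocounts (0.1, 0.5 FPKM), testing without a filter, a minimum mean of 5 FPKM, median-ratio and quantile scaling, library weights, the replicate number as a block, the rat number series, a fit of 2 groups, and leaving out each library.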

Additional observations from a re-analysis of the deposited data

How the results depend on the processing

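Of the 30 log2 changes of the 10 genes, none changed sign under the 19 alternative fits of each. Without 1 library in turn, the number of the 10 genes called ran from 5 to 10 in HS_SCR minus 0.4% salt, 0 to 5 in HS_DT minus HS_SCR, 0 to 0 in HS_DT minus 0.4% salt and 0 to 7 in the F test. From HS_SCR to HS_DT, a minimum mean of 5 FPKM called 4 genes, the rat number series as a factor 4 and library weights 5; library weights called 3 from 0.4% salt to HS_DT, and quantile normalization 1 in the F test. With the replicate block 8, 0 and 0 of the genes were called, and 8 in the F test. Same-numbered libraries of different groups had residual correlations from -0.08 to 0.26, above 0.1 in 5 of 9 pairs. Differently numbered libraries ran from -0.31 to 0.24, above 0.1 in 2 of 18 pairs. The labels do not say that the numbers pair rats, and for that reason alone they are not taken as pairs. A shared effect of the number was not tested.

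Over all loci, the count called in HS_SCR minus 0.4% salt was 1874, and 347 to 5188 without 1 library, 466 in the fit of 2 groups and 4019 with library weights. In HS_DT minus HS_SCR it was 1, and 0 to 2300 without 1 library (2300 without HS_SCR replicate 3), 154 at a minimum mean of 5 FPKM, 422 with the rat number series, 1496 with library weights, 3 with no filter and 0 under the block or quantile normalization. In HS_DT minus 0.4% salt it was 0, and 0 to 6 without 1 library, 2 at a minimum mean of 5 FPKM, 1 in the fit of 2 groups and 1805 with library weights. The causes were not tested. Without 1 library the Krt18 to Krt8 log2 ratio differed by 0.02 to 0.31 (HS_SCR minus 0.4% salt), -0.35 to -0.06 (HS_DT minus HS_SCR) and -0.11 to 0.03 (HS_DT minus 0.4% salt), the Krt19 to Krt7 ratio by -0.15 to 0.54, -0.49 to 0.20 and -0.01 to 0.14, and the Lcn2 to Havcr1 ratio by 0.16 to 1.06, -1.002 to -0.10 and -0.26 to 0.35. Depth is unknown, which limits statements on genes near 0.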

Other observations

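Of 8 further intermediate filament genes tested, 2 fell and 1 rose in HS_SCR. The neurofilament genes Nefm and Nefl, known from neurons, fell in HS_SCR: Nefm measured 4.98, 4.80 and 5.70 FPKM in 0.4% salt, 1.36, 0.385 and 0.317 in HS_SCR, with 2.28, 1.67 and 2.05 in HS_DT (HS_SCR minus 0.4% salt -1.92 ± 0.22, limma adjusted p = 0.00566). The 3 groups of Nefm were fully separated, with HS_DT in the middle. Nefl fell from 3.69 ± 1.14 to 0.348 ± 0.332 FPKM (-1.80 ± 0.24, limma adjusted p = 0.00690). Lmna, of the nuclear lamina, rose by 0.37 ± 0.09 (limma adjusted p = 0.0367), at 35.8, 46.6 and 42.6 FPKM on average in 0.4% salt, HS_SCR and HS_DT. The other 5 were not called, Des, the filament protein of muscle, among them (28.1, 44.3 and 38.9 FPKM; limma adjusted p = 0.130).

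Mmp7, a protease of injured tubules, was singled out after its values were seen. It measured 32.9 FPKM in HS_SCR replicate 3 and 0.462 to 1.47 in the other 8 libraries, and its change did not pass (1.86 ± 0.91, limma adjusted p = 0.195).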
